A study of Rattus norvegicus with 8 samples.

Results

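The rat major histocompatibility complex is called RT1, and its genes were followed here together with the genes that load and control its products. The set holds every array probe named RT1-, plus the probes of B2m, Tap1, Tap2, Tapbp, Cd74 and Ciita. It comprised 54 gene names on 77 probes, of 36174 names on 45598 probes on the array. Of the 54 names, 38 were class I (58 probes), 10 were class II (10 probes) and 6 were accessory genes (9 probes).

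Liver RNA of male Wistar rats was hybridised to 1-colour Agilent arrays, 1 array per labelled rat. The 4 STL rats received structured lipids containing butyrate (STL) at 1.65 g/kg body weight by daily gavage, and the 4 control rats received maltodextrin at 3.0 g/kg body weight, which supplied the same energy. Both groups ate commercial chow, and in both the "resistant hepatocyte" model, a chemical protocol that selects initiated liver cells, was begun 2 weeks into treatment. Livers were taken at 8 weeks, so the control livers were also under hepatocarcinogenesis and there was no untreated liver in the comparison.

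Class I molecules sit on nearly all nucleated cells and show peptides from inside the cell to cytotoxic T cells. Each is a heavy chain joined to beta-2-microglobulin, loaded with peptides that the TAP transporter brings into the endoplasmic reticulum. Class II molecules are alpha and beta chain pairs that show peptides from outside the cell to helper T cells, mainly on dendritic cells, macrophages and B cells, which in liver include the Kupffer cells. RT1 is highly polymorphic, the number of class I genes differs between rat haplotypes, and Wistar rats are an outbred stock. The labels do not give the RT1 haplotypes of these rats, and the part of allele differences in the values below was not tested.

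Every level below is a normalised log2 signal, log2 of a probe's processed signal minus log2 of the 75th percentile of its array, so that 0 is that percentile. That percentile ranged from 304 to 605 across arrays, the share of probes well above background ranged from 54.2% to 62.9%, and no spot was saturated. Control 1 and control 2 gave arrays that differed by 1.05 times the spot-to-spot noise of an array and were counted as 1 sample, control 1+2, which left 4 STL samples and 3 control samples. With 8 arrays in all, their number limits how precise any value can be. Hepatocyte markers were bright, with Alb at 8.96 ± 0.33 in STL livers and 8.55 ± 0.19 in control livers (SD, n = 4 and n = 3). The authors' series table gives 6 of its 8 columns the signals of a different array within the group, never one from the opposite group, so liver numbers below are those of the scanner files.

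Of the 77 probes, 68 cleared the background of 4 or more of the 8 arrays and were tested, and these covered 48 of the 54 names. The class I names RT1-M1-2, RT1-M1-4 and RT1-M1-5 and the class II names RT1-Ba, RT1-DOa and RT1-Ha had no tested probe. RT1-M10-1, RT1-N2 and RT1-T18 each had 1 tested and 1 untested probe. A further 8 tested probes were well above background on fewer than 8 arrays. For the RT1-O1 probe and the dim probes of RT1-A3, RT1-S2 and RT1-M5, all 4 control arrays were above background. Only 2, 2, 1 and 1 STL arrays were. These probes therefore passed the filter through the control arrays, and no count over the tested probes is read as support.

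Of the 68 probes, 44 were lower and 24 higher in STL livers, and 43.4% of all probes were lower. No RT1 or accessory probe passed limma's test after Benjamini-Hochberg adjustment over all probes (0 of 68 at adjusted p under 0.05), and 0.00371% of all 26979 probes tested, 1 probe, did. At an unadjusted p under 0.05, 29 of the 68 did (42.6%), against 18.2% of all probes. Of these, 7 were higher in STL livers, all class I, against 10.8% of all probes. The 7 include a pair of RT1-T24-4 probe IDs with an identical sequence, counted as separate probes here and in the counts of ranges below. The other 22 were lower in STL livers, against 7.4% of all probes, and were 17 class I, 3 class II and 2 accessory probes. In 5 of the 68 all STL livers lay below all control samples (RT1-A1, RT1-A3, RT1-M2, RT1-M3-1 and Tap1), against 5.71% of all probes. In 0 of the 68 did they all lie above, against 10.5% of all probes.

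The livers of the STL group differed among themselves in class I genes. The median range among the STL livers was 1.08 over the 52 class I probes tested, beside 0.36 among the control samples, and over all probes it was 0.49 in STL livers and 0.43 in control samples. A range over 1 log2 among the STL livers was found in 27 class I probes and in 30 of all 68, against 15.4% of all probes. A range over 1 log2 among the control samples was found in 6 of the 68, all class I, against 14.1% of all probes.

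**Figure D1:**
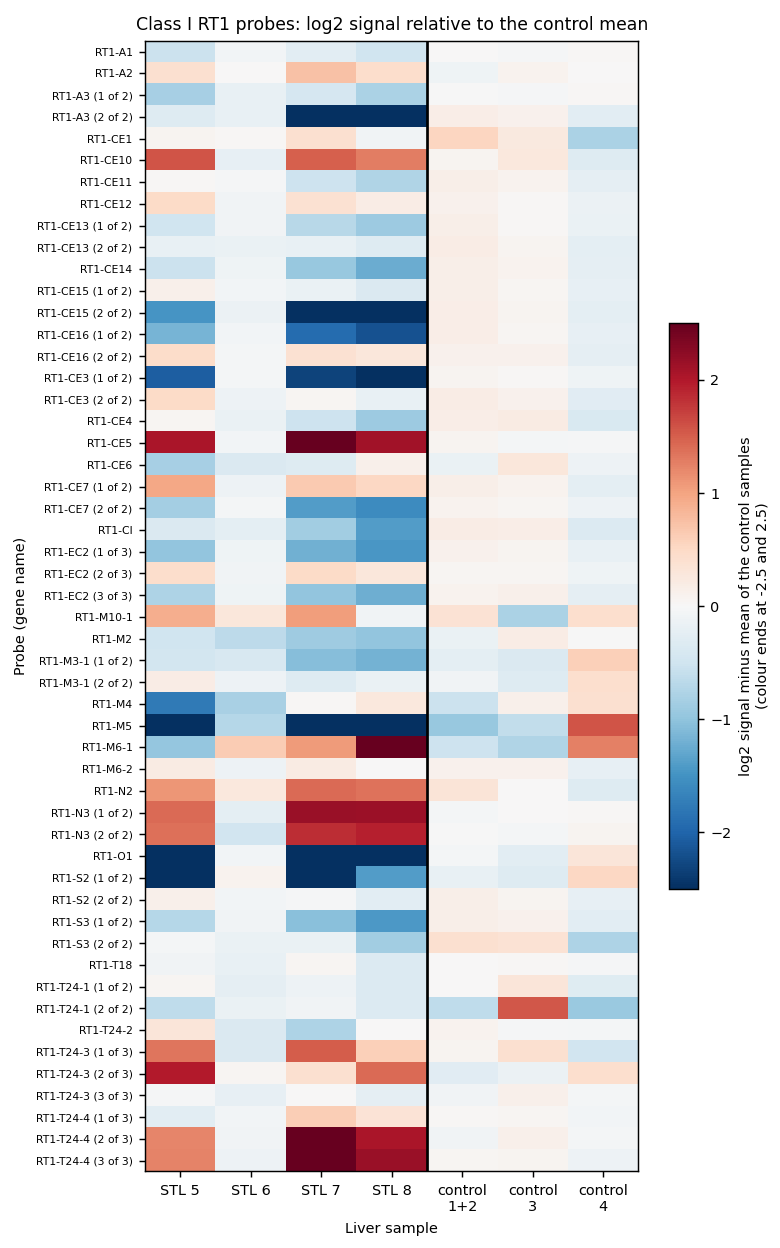
Normalised log2 signal of the 52 class I probes tested, relative to the mean of the control samples, with a row per probe and a column per liver sample (STL left of the line, control right of it). Columns STL 5, STL 7 and STL 8 hold strong colours of both directions in the same rows, while column STL 6 is pale in most rows.

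Each STL liver was set against the range of the 3 control samples. In STL 5, 14 of the 68 probes lay more than 1 log2 outside that range (20.6%), against 2.77% of all probes. In STL 6 the count was 0, against 0.745% of all probes. In STL 7 it was 20 (29.4%), against 2.99%, and in STL 8 it was 24 (35.3%), against 2.66%. Class I probes made up 13 of the 14 in STL 5, 17 of the 20 in STL 7 and 21 of the 24 in STL 8. The probes lay on both sides of the control range. In STL 5, 7 were above it and 7 below, against 1.16% and 1.61% of all probes. In STL 7, 8 were above and 12 below, against 1.21% and 1.79%. In STL 8, 9 were above and 15 below, against 1.07% and 1.59%, and in STL 6 none lay on either side, against 0.512% and 0.234%. All probes above the range in STL 5, 7 and 8 were class I. STL 6 lay inside the control range for 53 of the 68 probes, against 56.5% of all probes. The count inside the range was 14 in STL 5, against 36.1%, 19 in STL 7, against 38.7%, and 12 in STL 8, against 40.2%.

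**Figure D2:**
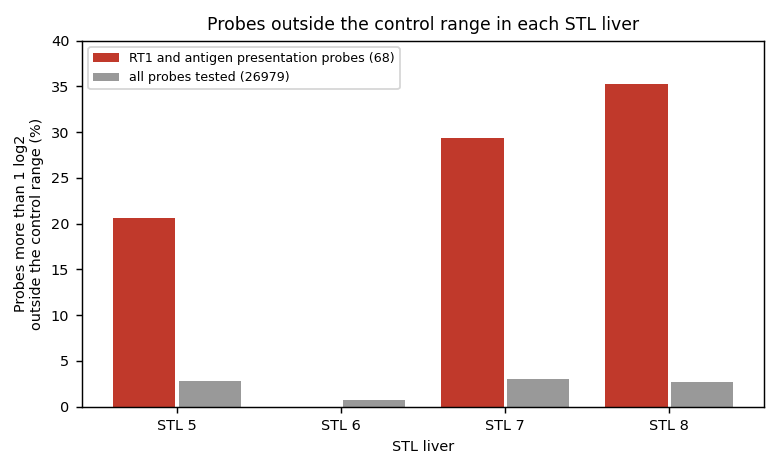
Share of probes, in percent, that lay more than 1 log2 outside the range of the 3 control samples in each STL liver, for the 68 RT1 and antigen presentation probes (red) and all 26979 probes tested (grey). The red bars stand at 20.6% in STL 5, 0% in STL 6, 29.4% in STL 7 and 35.3% in STL 8, and no grey bar exceeds 2.99%.

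Among the class I probes, the array nearest to STL 6 was that of control 4 (median absolute difference 0.14 on the log2 scale). STL 7 and STL 8 were nearest to each other (0.24), and STL 5 was nearest to STL 7 (0.38). Over all probes the array nearest to STL 6 was that of control 2 (0.19), with control 1 (0.19) and STL 8 (0.20) almost as near. These distances describe the arrays and carry no test.

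The classical class I genes RT1-A1, RT1-A2 and RT1-A3 encode heavy chains that present peptides on most cells. RT1-A1 was at 7.45, 7.91, 7.72 and 7.49 in STL 5 to 8, against 7.99, 7.96 and 8.01 in control 1+2, 3 and 4. All STL livers lay below all control samples, with STL 6 closest to them, and the difference was -0.34 ± 0.15 (SE; limma adjusted p = 0.261). The brighter RT1-A3 probe was at 7.06, 7.70, 7.46 and 7.10 in the STL livers, against 7.89, 7.86 and 7.93 in the control samples. The groups again did not overlap, and the difference was -0.56 ± 0.18 (SE; limma adjusted p = 0.194). RT1-A2 was at 7.50, 7.12, 7.83 and 7.55 in the STL livers, against 7.01, 7.19 and 7.12 in the control samples. STL 6 alone lay inside the control range, and the difference was 0.39 ± 0.17 (SE; limma adjusted p = 0.273). RT1-A1 and RT1-A2 thus differed with opposite sign, although their probes share an identical run of 34 bases. The dim RT1-A3 probe was at -1.71, -1.58, -5.31 and -5.26 in the STL livers, against -1.23, -1.29 and -1.66 in the control samples. STL 7 and STL 8 were far below the others, the groups overlapped (limma adjusted p = 0.291), and the difference was -2.07, or -0.96 with normexp and quantile normalization. Quantile normalization alone gave -0.61 for RT1-A1 and 0.22 for RT1-A2.

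The promoter of RT1-A1 is shown for the motifs that class I promoters are known to carry, and it holds both a kappa B site, bound by NF-kappa B, and a Y box, bound by NF-Y. It is from RefSeq on the GRCr8 assembly, chr20:4906959-4907258 on the plus strand, 250 bases before to 50 after the gene's start, and capitals mark the kappa B letters and the Y box, here on the opposite strand.
RT1-A1 promoter: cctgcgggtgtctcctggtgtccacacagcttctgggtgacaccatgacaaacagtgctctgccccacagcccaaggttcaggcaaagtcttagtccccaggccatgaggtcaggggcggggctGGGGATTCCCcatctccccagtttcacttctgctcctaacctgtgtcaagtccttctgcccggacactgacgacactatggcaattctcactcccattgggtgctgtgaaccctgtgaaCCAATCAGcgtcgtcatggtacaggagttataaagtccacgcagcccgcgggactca
The search used both strands, and 45 of the 54 names had a promoter in the table. The kappa B letters in capitals above were found in 8 of 31 class I promoters, in 0 of 9 class II and 0 of 5 accessory promoters, and in 0.114% of all 33469 promoters. The Y box letters CTGATTGG were found in 12 of 31 class I and 7 of 9 class II promoters, and in 3.5% of all promoters. A match describes these letters and not a bound site.

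**Figure D3:**
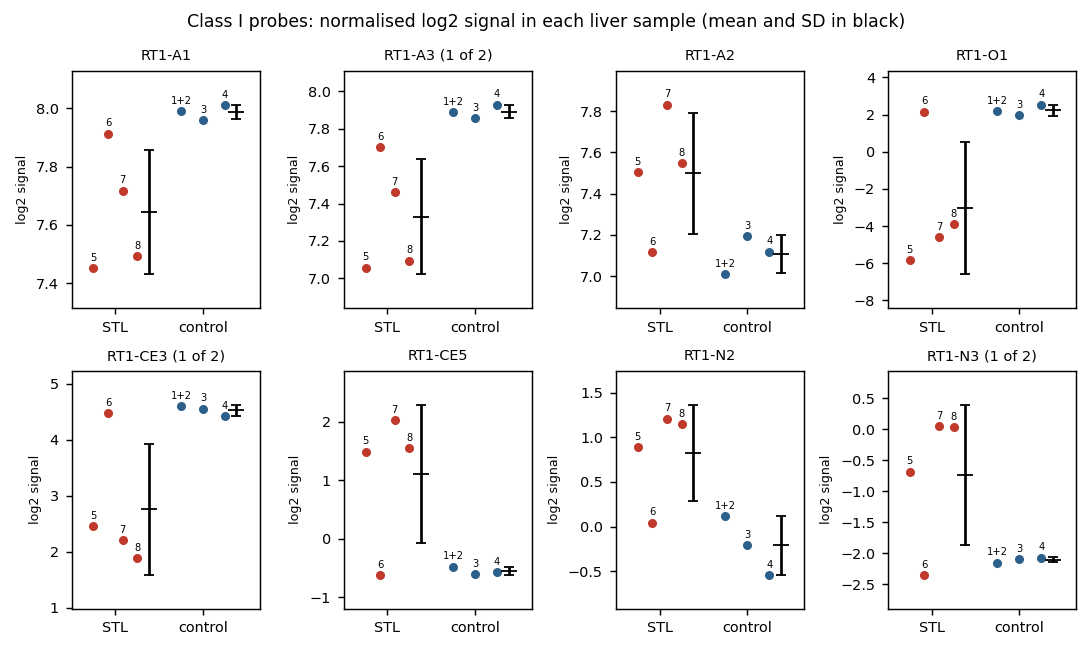
Normalised log2 signal of 8 class I probes in each liver sample, with STL livers (red, 5 to 8) left of control samples (blue, 1+2, 3 and 4) and the mean with its SD in black beside each group. STL 6 lies at the level of the control samples for RT1-O1, RT1-CE3 and RT1-CE5, where STL 5, 7 and 8 lie apart from them.

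The remaining class I genes lie in the RT1-C/E and RT1-M regions or have names of the N, S and T series, and include non-classical heavy chains whose roles are less well known. The sequences of 2 probes are shown because the results turn on them, each as the file gives it, with rn4 positions. RT1-O1 was at chr20:2801455-2801636 and RT1-CE3 at chr20:3552938-3553124 on the minus strand.
RT1-O1 probe: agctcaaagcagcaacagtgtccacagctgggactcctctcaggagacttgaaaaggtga
RT1-CE3 probe: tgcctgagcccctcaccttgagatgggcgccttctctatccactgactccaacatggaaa

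RT1-O1 showed the widest difference of any class I probe. It was at -5.85, 2.16, -4.61 and -3.88 in STL 5 to 8, against 2.19, 1.97 and 2.54 in control 1+2, 3 and 4. STL 6 lay among the control samples, the other 3 STL livers lay far below, and only 2 of 4 STL arrays were well above background. The difference was -5.27 ± 1.60 (SE; limma adjusted p = 0.191), and -3.67 with normexp and quantile normalization. STL 5 and STL 7 were the arrays not well above background. The RT1-CE3 probe shown was at 2.46, 4.48, 2.21 and 1.90 in the STL livers, against 4.61, 4.56 and 4.42 in the control samples. STL 6 was again at the control level, and the difference was -1.77 ± 0.53 (SE; limma adjusted p = 0.189). The dimmer RT1-CE15 probe was at -0.32, 1.01, -1.43 and -1.51 in the STL livers, against 1.32, 1.22 and 0.90 in the control samples. STL 6 lay inside the control range and the others below it, with a difference of -1.71 ± 0.54 (SE; limma adjusted p = 0.196).

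Other class I probes lay higher in the same livers. RT1-CE5 was at 1.49, -0.61, 2.02 and 1.55 in the STL livers, against -0.48, -0.60 and -0.57 in the control samples. STL 6 was just below the controls, the others were more than 1 log2 above them, and the difference was 1.66 ± 0.53 (SE; limma adjusted p = 0.199). RT1-N2 was at 0.89, 0.05, 1.21 and 1.15 in the STL livers, against 0.12, -0.21 and -0.54 in the control samples, a difference of 1.03 ± 0.29 (SE; limma adjusted p = 0.188). STL 6 alone overlapped the controls. A pair of RT1-T24-4 probe IDs carry an identical sequence and gave differences of 1.44 and 1.47. That sequence was at 3.06, 1.69, 4.40 and 3.96 in the STL livers under the second ID, against 1.87, 1.88 and 1.69 in the control samples. STL 6 was at the lower edge of the controls (limma adjusted p = 0.225). The 2 RT1-N3 probes differed by 1.37 and 1.17 and RT1-CE10 by 1.03, with STL 6 lower than the other STL livers in each.

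RT1-M2 had the smallest unadjusted p of the class I probes. It was at -2.61, -2.76, -3.00 and -3.10 in the STL livers, against -2.27, -1.92 and -2.12 in the control samples. All STL livers, STL 6 included, lay below all control samples, by -0.76 ± 0.19 (SE; limma adjusted p = 0.181), and by -0.42 with normexp and quantile normalization. The brighter RT1-M3-1 probe also separated the groups, with a difference of -0.77 (limma adjusted p = 0.219). It was at 0.31, 0.36, -0.30 and -0.42 in the STL livers, against 0.52, 0.40 and 1.36 in the control samples. STL 6 lay just below control 3, and control 4 was highest. The other RT1-M3-1 probe differed by -0.11 (limma adjusted p = 0.798), and its groups overlapped. In mice, the M3 molecule is known for presenting formylated peptides of bacteria. The probes RT1-M5, RT1-S2 and RT1-M6-1 were dim and had wide ranges, and with normexp and quantile normalization their differences were -1.55 beside -3.47, -0.58 beside -2.14 and 1.20 beside 2.08. RT1-M5 was at -4.99, -1.93, -5.11 and -6.70 in the STL livers, against -2.15, -1.83 and 0.35 in the control samples, and STL 6 overlapped the controls. The dim RT1-S2 probe was at -6.92, -3.02, -6.56 and -4.51 in the STL livers, against -3.30, -3.43 and -2.60 in the control samples. RT1-M6-1 was at -5.96, -4.36, -3.94 and 2.59 in the STL livers, against -5.51, -5.75 and -3.73 in the control samples, so that STL 8 alone stood apart.

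Probes that share a gene name often gave different answers in class I. Of 14 class I names with several tested probes, 9 had probes whose differences lay more than 1 log2 apart (64.3%), against 3.65% of 3999 such names over the whole array. The median gap was 1.25 for the class I names, 0.03 for the 3 accessory names and 0.21 for all names. Opposite signs were found in 5 of the 14 (35.7%), a share close to the 35.1% of all names. Some class I names, among them RT1-EC2, RT1-S2 and RT1-T24-3, join probes annotated to different transcripts. A gap within such a name therefore need not concern a single transcript. Other names had gaps over 1 log2 between probes annotated to the same transcript. They were RT1-A3, RT1-CE3, RT1-CE7, RT1-CE15, RT1-CE16 and RT1-T24-4, with gaps of 1.51, 1.82, 1.47, 1.60, 1.60 and 1.31. The second RT1-CE3 probe was at 2.45, 1.85, 2.03 and 1.79 in the STL livers, against 2.16, 2.08 and 1.70 in the control samples. The groups overlapped, and the difference was 0.05 ± 0.18 (SE; limma adjusted p = 0.893), beside -1.77 on the RT1-CE3 probe shown above. STL 6 lay inside the control range on both.

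Some probes of different genes were alike. The probes of RT1-CE16 and RT1-EC2 below share a run of 29 bases, in capitals, and lie at chr20_random:37878-37937 on the minus strand and at chr20:5059139-5059198 on the plus strand of rn4.
RT1-CE16 probe: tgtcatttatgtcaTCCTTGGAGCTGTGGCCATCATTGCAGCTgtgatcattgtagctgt
RT1-EC2 probe: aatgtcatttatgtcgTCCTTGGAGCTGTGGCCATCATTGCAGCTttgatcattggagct
These probes differed by -1.33 for RT1-CE16 and -0.93 for RT1-EC2, while the brightest RT1-EC2 probe differed by 0.28 and the other RT1-CE16 probe by 0.27. The brightest RT1-EC2 probe is annotated to another transcript than the RT1-EC2 probe shown, and lies on chr20_random. The remaining RT1-EC2 probe is annotated to the same transcript as the brightest, yet differed by -0.76. The RT1-EC2 probe shown was at 5.69, 6.57, 5.47 and 5.23 in the STL livers, against 6.79, 6.74 and 6.49 in the control samples, with STL 6 inside the control range (limma adjusted p = 0.193). Of the 58 class I probes, 26 shared a run of at least 15 bases with another probe of the set, and none of the 10 class II or 9 accessory probes did. Whether similar transcripts bind the same probes was not tested, and class I values are given by probe. Among class I probes not described above, RT1-S3 differed by -0.82, RT1-Cl by -0.72 and RT1-CE14 by -0.71, and the bright RT1-M6-2 probe by 0.07.

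**Figure D4:**
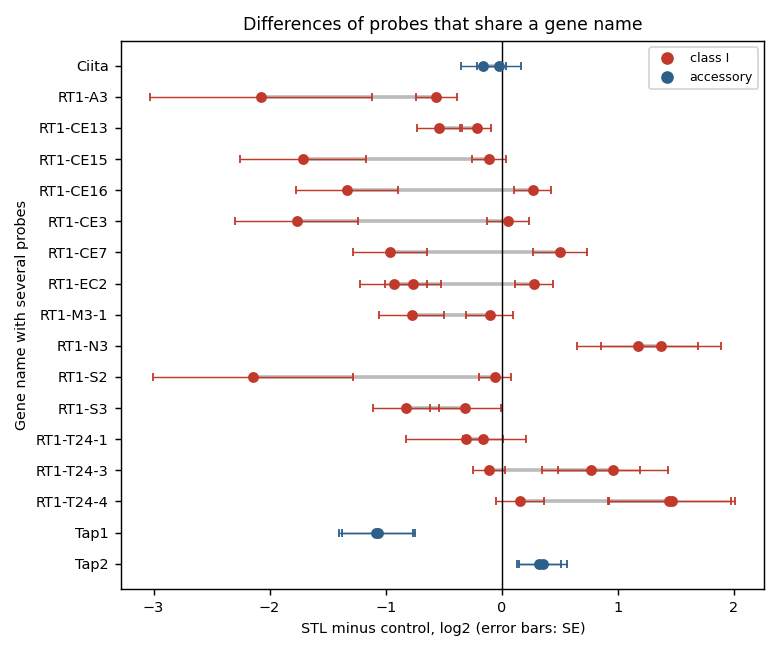
Difference of STL minus control on the log2 scale, with its SE, for every tested probe of the 17 gene names with several tested probes, class I in red and accessory in blue. The points of Tap1, Tap2 and Ciita lie close together, while those of RT1-CE3, RT1-CE16, RT1-EC2 and RT1-T24-3, among others, lie on both sides of 0.

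In class II, 6 of 7 tested probes were lower and 1 was higher in STL livers, with a median difference of -0.33, beside -0.18 in class I and 0.05 over all probes. With 1 sample left out the class II median lay between -0.43 and -0.16, at its smallest without control 4, and it was -0.13 with no filter on dim probes. In whole liver, fewer class II-bearing cells and less RNA per cell cannot be told apart. RT1-Db1 and RT1-Db2 encode beta chains and RT1-Da the alpha chain of the D molecule. The sequences of the 2 beta chain probes are given because they gave the largest class II differences and share no run of over 5 bases. They lie at chr20:4650316-4650375 for RT1-Db2 and chr20:4672665-4672724 for RT1-Db1, on the minus strand of rn4.
RT1-Db2 probe: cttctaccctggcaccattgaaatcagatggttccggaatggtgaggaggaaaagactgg
RT1-Db1 probe: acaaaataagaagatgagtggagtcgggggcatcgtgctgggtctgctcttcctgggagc
RT1-Db2 was at 1.81, 3.15, 1.75 and 1.74 in the STL livers, against 2.98, 3.13 and 3.55 in the control samples. STL 6 lay inside the control range and the other STL livers more than 1 log2 below it, with a difference of -1.11 ± 0.34 (SE; limma adjusted p = 0.193). RT1-Db1 was at 3.50, 4.37, 3.38 and 3.41 in the STL livers, against 4.20, 4.29 and 4.74 in the control samples, with the same liver apart and a difference of -0.74 ± 0.25 (SE; limma adjusted p = 0.209).

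RT1-Da was at 4.19, 4.63, 4.36 and 4.45 in the STL livers, against 4.53, 4.60 and 5.07 in the control samples, and the groups overlapped through STL 6 (difference -0.33, limma adjusted p = 0.319, and -0.16 without control 4). RT1-Bb, the beta chain of the B molecule, was the class II probe that lay higher, at 3.25, 2.87, 3.85 and 3.81 in the STL livers, against 2.77, 2.82 and 3.19 in the control samples (difference 0.52, limma adjusted p = 0.298). STL 6 again lay inside the control range. RT1-DMa and RT1-DMb form the DM molecule, which exchanges peptides on class II. RT1-DMb was at 1.22, 1.74, 0.88 and 1.30 in the STL livers, against 1.73, 1.73 and 2.07 in the control samples (difference -0.56, limma adjusted p = 0.215). RT1-DMa differed by -0.12, and its levels were 0.79, 1.11, 1.19 and 1.08 in the STL livers, against 1.21, 1.11 and 1.17 in the control samples. RT1-DOb, a chain of the DM inhibitor DO, was dim at -3.43, -3.48, -4.39 and -3.87 in the STL livers, against -3.73, -3.77 and -3.44 in the control samples. The groups overlapped in all of these, and STL 6 lay inside the control range for each of the 7 class II probes.

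The RT1-Da promoter is shown for the X and Y boxes through which CIITA is known to act on class II genes. It is from RefSeq on GRCr8, chr20:4515165-4515464 on the plus strand, and capitals mark a match to an X box pattern with some free positions and then the Y box.
RT1-Da promoter: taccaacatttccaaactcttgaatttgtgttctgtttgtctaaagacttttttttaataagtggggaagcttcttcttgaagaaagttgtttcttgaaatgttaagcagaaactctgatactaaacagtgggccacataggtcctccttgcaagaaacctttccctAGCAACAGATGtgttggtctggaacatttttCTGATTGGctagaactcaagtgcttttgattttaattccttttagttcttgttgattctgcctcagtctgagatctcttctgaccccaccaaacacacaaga
The X box pattern was found in 5 of 9 class II promoters (RT1-Bb, RT1-DOb, RT1-Da, RT1-Db1 and RT1-Db2), in 1 of 31 class I promoters and in 0.95% of all promoters.

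**Figure D5:**
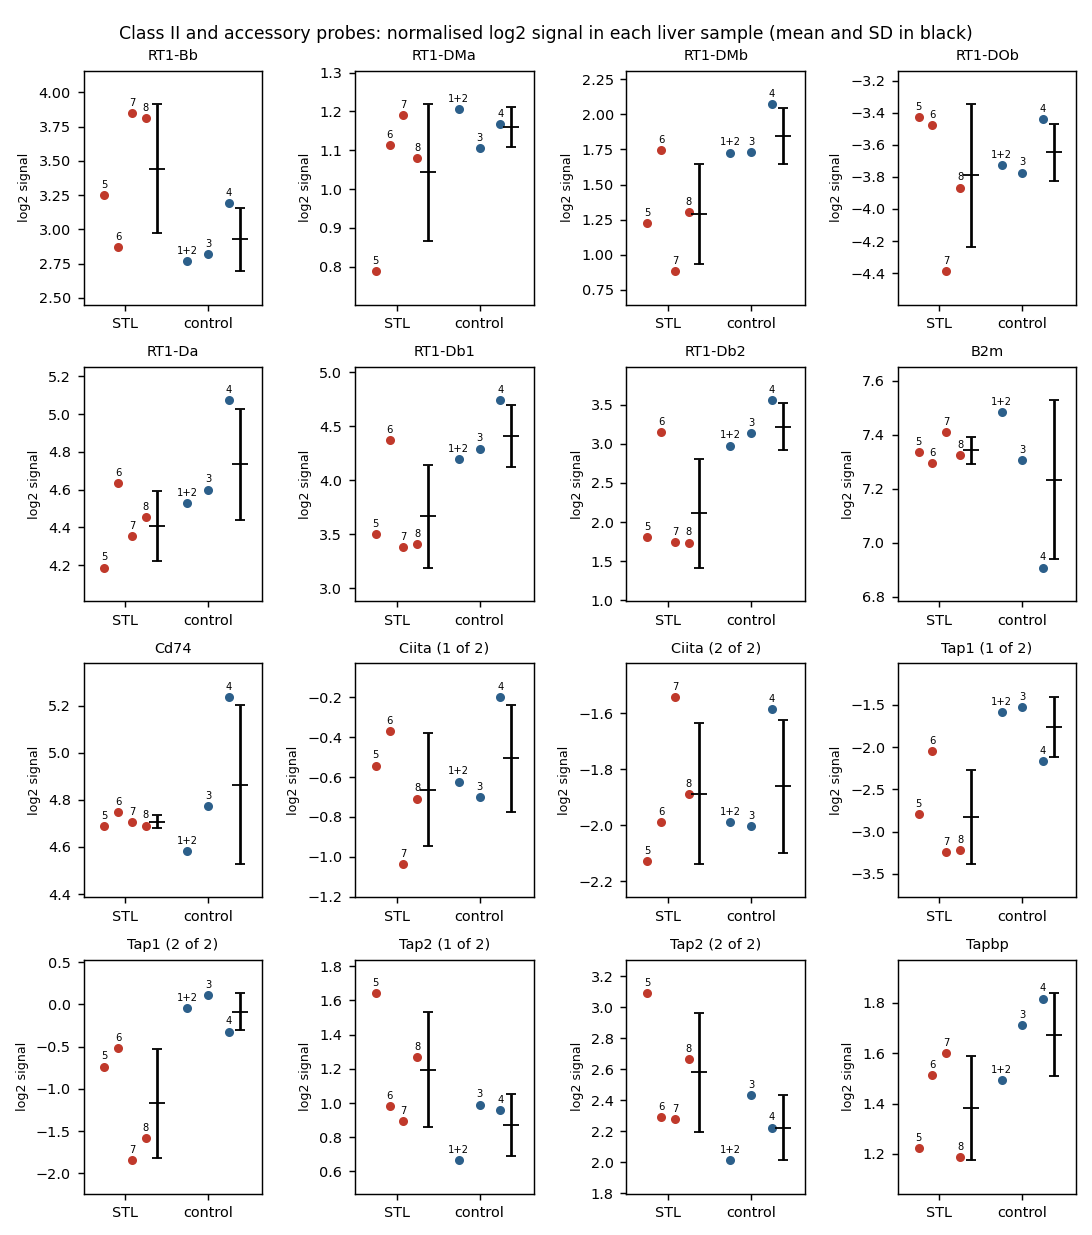
Normalised log2 signal of the 7 class II and 9 accessory probes tested in each liver sample, with STL livers (red, 5 to 8) left of control samples (blue, 1+2, 3 and 4) and the mean with its SD in black beside each group. In RT1-Db1 and RT1-Db2 the point of STL 6 lies with the control samples, and the second Tap1 probe is the 1 accessory probe whose groups do not overlap.

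Of the accessory genes, Tap1 differed most. Tap1 and Tap2 encode the chains of the peptide transporter. The first Tap1 probe was at -2.80, -2.05, -3.24 and -3.22 in the STL livers, against -1.59, -1.52 and -2.17 in the control samples, a difference of -1.06 ± 0.31 (SE; limma adjusted p = 0.188). The second was at -0.73, -0.51, -1.85 and -1.58 in the STL livers, against -0.05, 0.11 and -0.32 in the control samples, a difference of -1.08 ± 0.32 (SE; limma adjusted p = 0.188). On the second the groups did not overlap, and on the first STL 6 lay above control 4. Taken off the log2 scale, these differences put the STL geometric mean at 0.478 of the control geometric mean by the first probe and 0.472 by the second. With normexp background correction and quantile normalization the difference of the first was smaller, at -0.55, and that of the second was -0.77. Their sequences are shown because 2 separate stretches of the gene gave like differences, at chr20:4797053-4797112 and chr20:4793943-4794002 on the minus strand of rn4.
Tap1 first probe: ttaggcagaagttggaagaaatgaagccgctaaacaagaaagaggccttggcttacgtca
Tap1 second probe: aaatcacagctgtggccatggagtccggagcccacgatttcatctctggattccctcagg

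The Tap2 probes differed the other way. The first was at 1.64, 0.98, 0.89 and 1.27 in the STL livers, against 0.66, 0.99 and 0.96 in the control samples (difference 0.32, limma adjusted p = 0.379). The second was at 3.09, 2.29, 2.28 and 2.67 in the STL livers, against 2.01, 2.43 and 2.22 in the control samples (difference 0.36, limma adjusted p = 0.378). The groups overlapped on both, STL 5 was the highest liver, and without it the differences were 0.18 and 0.19. Tapbp encodes tapasin, which holds class I at the transporter, and was at 1.22, 1.51, 1.60 and 1.19 in the STL livers, against 1.49, 1.71 and 1.82 in the control samples (difference -0.29, limma adjusted p = 0.310). B2m, the light chain of class I, was at 7.34, 7.30, 7.41 and 7.32 in the STL livers, against 7.48, 7.31 and 6.91 in the control samples. STL livers lay inside the control range, and the difference was 0.11 ± 0.15 (SE; limma adjusted p = 0.718), with the opposite sign under quantile normalization and without control 4.

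Cd74 encodes the invariant chain, which guards the class II groove, and Ciita the coactivator of class II genes. Cd74 was at 4.69, 4.75, 4.71 and 4.69 in the STL livers, against 4.58, 4.77 and 5.24 in the control samples, with control 4 apart and a difference of -0.16 (limma adjusted p = 0.600) that turned to 0.03 without it. The Ciita probes differed by -0.16 (limma adjusted p = 0.675) and -0.03 (limma adjusted p = 0.951). The first was at -0.54, -0.37, -1.04 and -0.71 in the STL livers, against -0.62, -0.70 and -0.20 in the control samples. The second was at -2.13, -1.99, -1.54 and -1.89 in the STL livers, against -1.99, -2.0045 and -1.59 in the control samples. On both the groups overlapped.

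The Tap1 promoter is shown for its match to an interferon-response (ISRE-like) pattern, in capitals on the opposite strand. It is from RefSeq on GRCr8, chr20:4668494-4668793 on the minus strand.
Tap1 promoter: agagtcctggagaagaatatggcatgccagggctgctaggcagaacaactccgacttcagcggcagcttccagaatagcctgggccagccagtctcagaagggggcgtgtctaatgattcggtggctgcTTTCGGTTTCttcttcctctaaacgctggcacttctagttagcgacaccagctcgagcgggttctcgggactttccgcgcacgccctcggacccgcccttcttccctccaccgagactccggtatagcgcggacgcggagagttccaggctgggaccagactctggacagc
This pattern was found in 4 of 5 accessory promoters (B2m, Tap1, Tap2 and Tapbp), in 3 of 31 class I and 0 of 9 class II promoters, and in 3.92% of all promoters. Of the 4 accessory genes with this match, Tap1 and Tapbp lay lower in STL livers and Tap2 and B2m higher. The sign of B2m turned with quantile normalization. Any part of the match in these values was not tested.

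Class II minus class I, the difference of the 2 median differences was -0.14, and it was positive, at 0.14, without control 4. With each probe centred over the samples, the class II median was -0.30, 0.22, -0.60 and -0.14 in STL 5 to 8, against 0.11, 0.05 and 0.52 in control 1+2, 3 and 4. The class I median was 0.09, -0.05, -0.07 and -0.21 in the STL livers, against 0.16, 0.18 and -0.01 in the control samples. Both sets of groups overlapped.

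Other genes of the pathway were read from lists chosen with earlier results of these data known, and none of their members passed limma's adjusted test. Of 17 tested genes of class I processing and loading, 1 was higher and 0 lower in STL livers at an unadjusted p under 0.05, against 10.8% and 7.4% of all probes, and the median difference was -0.08. The translocon gene Sec61a1 was that gene, with a difference of 0.28 (limma adjusted p = 0.255). At the same unadjusted p, of 12 tested genes of class II processing 1 was higher, Marchf1 at 0.40, and 1 lower, the lysosomal protease Lgmn at -0.66. Of 16 regulators of these genes, by the same rule, 1 was higher, Jak1 at 0.34, and 3 were lower. Among the lower were Irf1 at -0.81 (limma adjusted p = 0.188) and Ifngr2, a chain of the interferon gamma receptor, at -0.57 (limma adjusted p = 0.181). Among 6 costimulation and checkpoint ligands, Cd274, which encodes PD-L1, differed by 0.81 (limma adjusted p = 0.172) and Cd40 by -0.63. Of 6 MHC-like genes outside RT1, Azgp1 differed by 0.54 and Hfe, an iron regulator, by -0.37. Of 13 interferon gamma response genes, 9 were lower and 4 higher at any size, against 43.4% of all probes lower. At an unadjusted p under 0.05, 4 were lower and none higher, against 7.4% and 10.8% of all probes. Their median was -0.33, led by Ifi47 at -1.11 (limma adjusted p = 0.103) and the chemokine gene Cxcl10 at -1.09 (limma adjusted p = 0.161). Of 12 interferon alpha and beta response genes, 10 were lower and 2 higher at any size, with a median of -0.34. At that p, 2 were lower and none higher, beside the same shares of all probes as above.

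Markers of cells that carry class II were read beside these values, and their part in the results was not tested. The counts of markers are of any size, beside 43.4% of all probes lower in STL livers, and none passed limma's adjusted test. Of 6 tested dendritic cell markers, 5 were lower in STL livers (2 at an unadjusted p under 0.05). The summed level on the linear scale lay between 2.77 and 3.51 in STL livers, against 3.53 and 5.04 in control samples. Cd83 at -1.02 and Fscn1 at -0.75 were those 2, and they made up most of the gap between the sums. Another marker counted as lower differed by only -0.0007. Of 14 macrophage markers, 10 were lower (1 at that p) and 4 higher, with summed levels of 140 to 191 in STL livers and 158 to 185 in control samples. Of 6 B cell markers, 4 were higher (1 at that p) and 2 lower, and no sum is read for them because Cd22 alone, at 7.17 in STL livers and 7.34 in control samples, makes up most of it. Of 12 T and NK cell markers, 10 were higher (2 at that p) and 2 lower, with sums of 16.3 to 23.3 in STL livers and 15.6 to 19.7 in control samples that are mostly Cd4. Of 10 cholangiocyte markers, 9 were lower (4 at that p), with sums of 3.21 to 8.48 in STL livers and 7.62 to 15.7 in control samples. With each marker centred over the samples, the cholangiocyte median was 1.5 in control 4, against 0.003 and 0.21 in control 1+2 and 3. It was -0.46, 0.31, -0.35 and -1.28 in STL 5 to 8. Of 11 stellate cell markers, 10 were lower (6 at that p), with sums of 31.8 to 46.9 in STL livers and 49.98 to 102 in control samples. The stellate median, centred alike, was 0.87 in control 4, against -0.01 and 0.15 in control 1+2 and 3. In STL 5 to 8 it was -0.33, 0.0009, -0.16 and -0.32. Of 8 sinusoidal endothelial markers, 4 were higher and 4 lower. Of 12 hepatocyte markers, 11 were higher (1 at that p), with a median difference of 0.35 and sums of 5606 to 8390 in STL livers and 4132 to 5828 in control samples.

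Leaving out STL 6, 8 of the 68 probes passed limma's adjusted threshold, against 0.2% of all probes (54 of 26979). They were RT1-CE3 at -2.34 (limma adjusted p = 0.00356), RT1-CE5 at 2.23 (limma adjusted p = 0.00394), RT1-Db2 at -1.46 (limma adjusted p = 0.0248), both RT1-N3 probes, RT1-CE10, RT1-EC2 and RT1-O1. RT1-O1 was well above background on only 1 of the 3 remaining STL arrays, so no size or p is read for it. Leaving out any other single sample gave 0. In these 8 probes STL 6 lay at or near the control level, apart from the other STL livers. Its removal therefore narrowed the STL group, and the SE of RT1-CE3 went from 0.53 to 0.16. That outcome was foreseeable from the values above, and these p-values are not read as support. With limma's array weights, 10 of the 68 passed, against 6.83% of all probes, including both Tap1 probes (limma adjusted p = 0.037 and 0.0373) and RT1-M2 at -0.93 (limma adjusted p = 0.0344). The array weights were 3.28 for control 3 and 2.05 for STL 8, and between 0.40 and 0.94 for the other samples. STL 6 was left out only as 1 of the 7 single-sample omissions, and no label sets that rat apart.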

How the data were processed

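Per the labels' protocols, liver total RNA was Cy3-labelled and put on 1-colour arrays. Spot intensity comes from the deposited scanner files, made with Agilent Feature Extraction version 11.5.1.1 per the file headers and 10.7 per the submitters' processing notes. The headers also give 1 slide, 1 scan time and build rn4. A series table deposited by the authors holds linear-scale intensity and was used as an alternative only.

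From these, spots flagged as non-uniform or outliers were left out (6 spots of the genes described), and the processed signal was averaged over the spots of 1 probe. Then log2 of that average was taken, and log2 of the array's 75th percentile over non-control probes was subtracted. Probes that cleared background on 4 or more of 8 arrays were tested two-sided with limma 3.58.1 in R 4.3.3 (lmFit, then eBayes with a trend over intensity). Benjamini-Hochberg adjustment covered 26979 probes, and the threshold was 0.05. Control 1 and control 2 were averaged because their SD ratio over repeated spots was under 1.5. Replicates are labelled as separate rats. The genes, lists, ratio limit and tests were chosen with earlier results of these data known.

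Values of every sample are given for accessory probes, the brightest class II probe of each name, RT1-A probes, the 8 class I probes with the smallest unadjusted p and the 6 probes with the widest range within a group. RT1-CE5 and the other class I probes named were added after their values were seen. From each list, genes with adjusted p under 0.05 or else at most 3 with the smallest p could be named. Of the 77 probes, 64 were matched to RefSeq by accession and 9 by symbol, and 4 kept the file's name. On simulated data for the 4 against 3 samples, the fit called 44% of probes changed by 1 log2, 80.8% of those changed by 2 and 94.8% of those changed by 3. The alternatives were the scaling, background correction, filter, flags, brightest probe, trend, array weights, slide blocks, series table, the control pair and each sample left out. Promoter patterns were searched on both strands of 300-base windows. Python 3.11.15, pandas 2.3.3 and matplotlib 3.10.9 were used.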

Additional observations from a re-analysis of the deposited data

Results flagged for a closer look

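In 2 class II probes, 1 STL liver stood apart from the other 3 by more than Dixon's critical value of 0.829 for 4 samples. RT1-Db1 was at 4.374 in STL 6, and the other STL livers were at 3.38 to 3.498. RT1-Db2 was at 3.147 in STL 6, and the other STL livers were between 1.74 and 1.81. Chance flags about 1 in 20 groups, and 4 of the 68 probes passed this value (5.88%), 2 of them class I. Over all 26979 probes 5.55% of the STL groups passed this value, 352 of them through STL 6.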

How the results depend on the processing

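Over 22 alternatives, 646 values of the 30 probes named by the rule were recomputed. Of these, 621 kept their direction and side of the threshold, 12 newly passed the threshold and 13 turned direction, and 26 of the 30 probes never turned. All of the turned values were small. The second Ciita probe was at 0.00512 with each array as a sample and with the slide column or slide row as a block, 0.06265 with array weights and 0.004428 in the authors' table, and between -0.1424 and 0.1095 with 1 sample left out. B2m was at -0.07864 with quantile normalization and -0.03361 with normexp, and between -0.053 and 0.2346 with 1 sample left out (0.1461 without control 3). With 1 sample left out Cd74 lay between -0.2971 and 0.02987 (-0.2023 without control 3) and RT1-DOb between -0.2645 and 0.05577. The probes past the adjusted threshold numbered 10 of the 68 with array weights and between 0 and 8 with 1 sample left out. Over all probes the count was 1, and it was 30 with each array as a sample, 30 in the authors' table, 1844 with array weights, 2 with either slide block and between 1 and 223 with 1 sample left out. The 223 came without control 1+2, and 54 without STL 6. The class I median lay between -0.30 and -0.12 with 1 sample left out, the lowest without control 4. The class II minus class I median was 0.06 with array weights and 0.14 without control 4. The causes were not tested. Between 20 and 41 of the 68 probes had an unadjusted p under 0.05. By replicate number, no paired analysis was possible because the labels give the groups no shared numbers. The slide column block, which sets 1 STL against 1 control array in each column, gave 0 of the 68 past the adjusted threshold and 39 at an unadjusted p under 0.05. Signal near background limits RT1-M5, RT1-M6-1, RT1-S2, RT1-DOb and the low values of RT1-O1.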
